A study of Mus musculus with 8 samples.

Results

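The genes described here encode the components of basement membranes other than laminins. They are the collagen IV chains Col4a1, Col4a2, Col4a5 and Col4a6, the multiplexin collagens Col15a1 and Col18a1, the nidogens Nid1 and Nid2, and the heparan sulfate proteoglycans Hspg2 (perlecan) and Agrn (agrin). They were taken by symbol from the table of counts, where all 10 were found among 26667 genes, and all 10 passed the filter on low counts in every set of tumours compared. They were selected on their place in one family of proteins and on the difference between KPH2 and KP tumours, which was already known for Col18a1. The differences between the groups are therefore described, and the place of each gene in the comparison over all genes is given as a description and not as a test of the family.

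Basement membranes are thin sheets of extracellular matrix that lie under epithelia and endothelia and around each muscle fibre, Schwann cell and fat cell. A network of laminin at the cell surface and a covalently linked network of collagen IV are bridged by nidogens, and perlecan and agrin add heparan sulfate chains that hold growth factors. In skeletal muscle the sheet around the fibre also carries agrin, which organizes the nerve-muscle synapse, and in tumours basement membrane proteins are made by blood vessels as well as by tumour cells.

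RNA was sequenced from formalin-fixed, paraffin-embedded hind limb tumours of 8 mice, with 1 library per tumour. All 8 tumours were undifferentiated pleomorphic sarcomas (UPS), which arise in soft tissue, from mice of a mixed 129/C57BL/6 strain. KP mice (KP 5 to KP 8) carried Trp53 fl/fl, and KPH2 mice (KPH2 1 to KPH2 4) carried the alleles of KP mice and Epas1 fl/fl, whose recombination removes HIF-2α, an oxygen-regulated transcription factor. In both groups Cre recombinase came from an adenovirus injected into the hind limb muscle of males and females aged 8 weeks or older, and tumours were taken 7 weeks later or at the largest size allowed. The allele is recombined only in cells that took up the virus and their progeny, so cells of a KPH2 tumour that the virus did not reach, such as incoming leukocytes and vessels, still carry an intact Epas1. In such bulk tissue, fewer cells of a type and less RNA per cell cannot be told apart.

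Libraries held 6463221 to 13155510 counts each. The study left out 1 KPH2 tumour as a technical outlier, which was taken to be KPH2 1 because this tumour is missing from the deposited table of normalized values for 7 tumours. KPH2 1 is shown apart below, and the comparison between groups used KP 5 to KP 8 and KPH2 2 to KPH2 4 (7 tumours) unless all 8 are named. All levels are counts per 1e+06 counts of the library size after TMM scaling (CPM), which sets the libraries to a common composition. Epas1 ran from 59.2 to 86.9 CPM in KP tumours and from 37.7 to 53.4 CPM in KPH2 2 to KPH2 4, and stood at 32.6 CPM in KPH2 1. Every KPH2 tumour, KPH2 1 included, lay below every KP tumour for the targeted gene (log2 fold change −0.81, standard error 0.19, adjusted p = 0.0742 over the 7 tumours, from the quasi-likelihood test of edgeR with Benjamini-Hochberg adjustment).

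Promoter windows from RefSeq, which run from 250 bases before to 50 bases after an annotated transcript start, were found for 9 of the 10 genes. Nid2 had no entry. Col18a1 has 2 annotated starts, and the counts, which are summed over the gene, do not separate transcripts from either one. Both windows are shown because Col18a1 had the largest difference between the groups. They lie on the minus strand of chromosome 10 of GRCm38.p6, at chr10:77166481-77166780 for the upstream start and chr10:77113656-77113955 for the internal start, and are written 5′ to 3′ on the transcribed strand with no letters in capitals.
Col18a1 upstream window: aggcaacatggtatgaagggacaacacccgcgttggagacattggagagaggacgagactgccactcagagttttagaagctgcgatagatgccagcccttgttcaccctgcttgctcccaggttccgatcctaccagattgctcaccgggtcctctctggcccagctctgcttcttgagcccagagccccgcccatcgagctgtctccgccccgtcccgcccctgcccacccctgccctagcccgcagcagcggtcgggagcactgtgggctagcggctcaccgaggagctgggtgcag
Col18a1 internal window: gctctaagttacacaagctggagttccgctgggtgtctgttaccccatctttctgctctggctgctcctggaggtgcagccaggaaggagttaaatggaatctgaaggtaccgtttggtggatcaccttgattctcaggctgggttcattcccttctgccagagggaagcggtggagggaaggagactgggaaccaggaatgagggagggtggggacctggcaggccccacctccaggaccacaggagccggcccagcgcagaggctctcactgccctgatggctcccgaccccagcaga

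Col4a1 and Col4a2 are transcribed away from each other from one region of chromosome 8. Their RefSeq windows overlap by 78 bases (chr8:11312777-11312854, GRCm38.p6), the transcripts from the starts of these windows overlap by 22 bases at their 5′ ends, and the annotated genes as a whole overlap by 85 bases. The Col4a2 window is shown because both genes were at lower mean levels in KPH2 tumours and kept a nearly even ratio across tumours. It lies at chr8:11312555-11312854 on the plus strand, and the capitals mark the bases that it shares with the Col4a1 window.
Col4a2 window: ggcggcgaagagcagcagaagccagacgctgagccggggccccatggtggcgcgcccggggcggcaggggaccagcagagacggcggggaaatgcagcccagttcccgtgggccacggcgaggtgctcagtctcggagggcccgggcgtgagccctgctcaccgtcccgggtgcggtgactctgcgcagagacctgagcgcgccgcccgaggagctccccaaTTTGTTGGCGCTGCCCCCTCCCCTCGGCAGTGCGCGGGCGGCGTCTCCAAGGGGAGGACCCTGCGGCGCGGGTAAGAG

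The letters ACGTG and GCGTG, the core of the element bound by HIF proteins, were searched on both strands of the 11 windows of these genes. ACGTG was present in 0 of the 11 windows, and in 19.6% of all 32851 mouse promoter windows of the same length. GCGTG was present in the windows of Col4a1, Col4a2, Hspg2 and the upstream start of Agrn, and in 32.4% of all windows. Neither Col18a1 window held either form. The GCGTG of Col4a2 lies outside the bases shared with Col4a1. The Col4a1 and Col4a2 windows are rich in G and C, at 74.0% and 73.7%, against a median of 52.7% over all windows, and the Col4a6 window is at 48.3%.

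Col4a1 and Col4a2 encode the α1 and α2 chains, which assemble into the collagen IV of nearly every basement membrane. Col4a1 (Entrez Gene 12826, chromosome 8 from 11198423 to 11312889, minus strand) was counted at 1518, 1829, 2918 and 973 CPM in KP 5 to KP 8, in that order, and at 851, 900 and 893 CPM in KPH2 2 to KPH2 4. KPH2 1 stood at 1288 CPM, inside the KP range. Each of KPH2 2 to KPH2 4 lay below the lowest KP tumour, KP 8, which stood 8.09% above the highest of them, and the KP tumours themselves spread 2.999-fold. Means were 1810 ± 819 CPM for KP (SD, n = 4) and 881 ± 26.4 CPM for KPH2 2 to KPH2 4 (SD, n = 3), with a log2 fold change of −1.04 (standard error 0.34).

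Col4a2 (Entrez Gene 12827, chromosome 8 from 11312805 to 11449287, plus strand) had its highest value in the same tumour, KP 7, with 843, 892, 1602 and 530 CPM in KP 5 to KP 8 and 487, 555 and 478 CPM in KPH2 2 to KPH2 4. KPH2 1 stood at 663 CPM. The groups overlapped, since KPH2 3 lay above KP 8. Means were 967 ± 453 CPM for KP (SD, n = 4) and 507 ± 42.2 CPM for KPH2 2 to KPH2 4 (SD, n = 3), with a log2 fold change of −0.93 (standard error 0.34). Within a tumour, Col4a1 CPM was between 1.62 and 2.05 times Col4a2 CPM in all 8 libraries, although the level of Col4a1 varied 3.43-fold and that of Col4a2 3.35-fold between tumours. The log2 ratio was 0.91 ± 0.09 for KP (SD, n = 4) and 0.80 ± 0.10 for KPH2 2 to KPH2 4 (SD, n = 3), and KPH2 1 at 0.96 fell among the KP tumours. These ratios do not depend on how the libraries were scaled. The counts used here have no row for antisense genes of this pair, and whether reads were counted by strand is not given in the sources used here, so reads from antisense transcripts within them cannot be told apart.

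Col4a5 and Col4a6 encode the α5 and α6 chains, which form a second collagen IV network with a more limited distribution. They lie head to head on the X chromosome (Col4a5, Entrez Gene 12830, from 141475370 to 141689236 on the plus strand, and Col4a6, Entrez Gene 94216, from 141165403 to 141474095 on the minus strand), 1275 bases apart, and the transcript starts within their promoter windows are 1343 bases apart. Col4a6 was counted at 9.88, 3.82, 1.19 and 10.3 CPM in KP 5 to KP 8, at 16.7, 20.9 and 32.9 CPM in KPH2 2 to KPH2 4 and at 6.15 CPM in KPH2 1. It was the least abundant of the 10 genes, and its lowest value, in KP 7, rests on 8 counts. KPH2 2 to KPH2 4 all lay above the 4 KP tumours, while KPH2 1 lay among the KP tumours. Means were 6.31 ± 4.52 CPM for KP (SD, n = 4) and 23.5 ± 8.39 CPM for KPH2 2 to KPH2 4 (SD, n = 3), with a log2 fold change of 1.86 (standard error 0.60).

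Col4a5 was counted at 75.4, 38.6, 36.6 and 58.0 CPM in KP 5 to KP 8 and at 74.5, 79.6 and 103 CPM in KPH2 2 to KPH2 4. KPH2 1, at 36.9 CPM, was close to the lowest KP tumours. The groups met, since KP 5 lay just above KPH2 2, and the log2 fold change was 0.71 (standard error 0.27). The ratio of Col4a5 to Col4a6 was less even than that of Col4a1 to Col4a2. Its log2 value ran from 2.47 to 4.64 in KP tumours and from 1.65 to 2.14 in KPH2 2 to KPH2 4, with KPH2 1 at 2.55, and the range over all 8 tumours was 2.99 against 0.34 for Col4a1 to Col4a2. KP 7, with the fewest Col4a6 counts, gave the highest ratio.

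Col18a1 encodes collagen XVIII, a heparan sulfate proteoglycan of basement membranes whose C-terminal fragment is endostatin, an inhibitor of vessel growth. The gene (Entrez Gene 12822) lies on chromosome 10 from 77052178 to 77166530 on the minus strand. It was counted at 172, 260, 227 and 145 CPM in KP 5 to KP 8 and at 2026, 1083 and 1273 CPM in KPH2 2 to KPH2 4. The lowest of these KPH2 tumours was at 4.17 times the highest KP tumour. KPH2 1 stood at 124 CPM, below all 4 KP tumours. Its Epas1 level was the lowest of the 8, and what this bulk level says about recombination in tumour cells was not tested. Means were 201 ± 51.7 CPM for KP (SD, n = 4) and 1461 ± 499 CPM for KPH2 2 to KPH2 4 (SD, n = 3), which is 7.27-fold higher. The log2 fold change was 2.86 (standard error 0.29, Benjamini-Hochberg adjusted p = 0.00905 over all tested genes in edgeR), the 9th smallest p of 14867 genes. With all 8 tumours it was 2.49 (standard error 0.67, adjusted p = 0.174 in edgeR and 0.00217 in DESeq2, the latter fit added after seeing the data).

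Col15a1 encodes collagen XV, the other multiplexin, which lies at the outer face of muscle and vessel basement membranes and whose C-terminal fragment, restin, is related to endostatin. Col15a1 (Entrez Gene 12819, chromosome 4 from 47207655 to 47313167, plus strand) was counted at 105, 420, 227 and 181 CPM in KP 5 to KP 8, at 63.3, 118 and 130 CPM in KPH2 2 to KPH2 4 and at 63.1 CPM in KPH2 1. KP 5 lay among the KPH2 tumours, and the KP tumours spread 4.01-fold. The log2 fold change was −1.17 (standard error 0.47). The fold changes of Col18a1 and Col15a1 thus had opposite signs. In KP tumours their levels were close, with a log2 ratio of Col18a1 to Col15a1 between −0.69 and 0.72. In KPH2 2, 3 and 4 Col18a1 was 31.9, 9.17 and 9.81 times Col15a1, and in KPH2 1 it was 1.96 times.

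**Figure D1:**
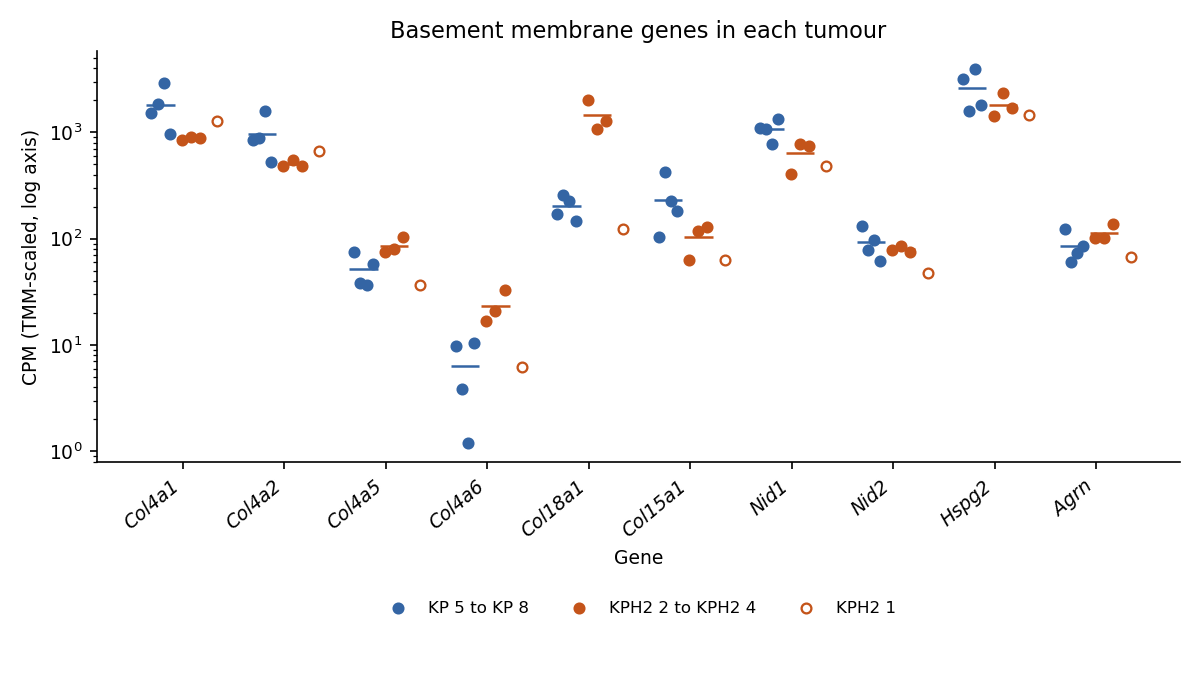
CPM of each gene (log axis) in every tumour, with KP 5 to KP 8 in blue, KPH2 2 to KPH2 4 in filled orange and KPH2 1 as an open circle; short lines are the means of KP and of KPH2 2 to KPH2 4. The filled orange points of Col18a1 lie between 1083 and 2026 CPM, above all 4 KP tumours (145 to 260 CPM), and the open circle lies below them at 124 CPM.

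Nidogens are glycoproteins that link laminin to collagen IV. Nid1 (Entrez Gene 18073, chromosome 13 from 13437602 to 13512275, plus strand) was counted at 1111, 1070, 786 and 1348 CPM in KP 5 to KP 8, at 404, 777 and 744 CPM in KPH2 2 to KPH2 4 and at 484 CPM in KPH2 1. It was the only one of the 10 genes whose 4 KPH2 tumours, KPH2 1 included, lay on one side of the 4 KP tumours. The gap was narrow, since KP 7 stood 1.096% above KPH2 3. Means were 1079 ± 230 CPM for KP (SD, n = 4) and 641 ± 207 CPM for KPH2 2 to KPH2 4 (SD, n = 3), with a log2 fold change of −0.75 (standard error 0.28), and of −0.84 (standard error 0.26) with all 8 tumours.

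Nid2 (Entrez Gene 18074, chromosome 14 from 19751257 to 19811787, plus strand) encodes the second nidogen and stood at 131, 78.2, 98.0 and 62.2 CPM in KP 5 to KP 8, at 78.1, 86.3 and 74.8 CPM in KPH2 2 to KPH2 4 and at 47.6 CPM in KPH2 1. KPH2 2 to KPH2 4 all lay within the KP range, and the log2 fold change of −0.21 was smaller than its standard error of 0.24. Nid1 CPM was between 5.16 and 21.6 times Nid2 CPM in the 8 tumours, a wider range of ratios than for Col4a1 and Col4a2.

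**Figure D2:**
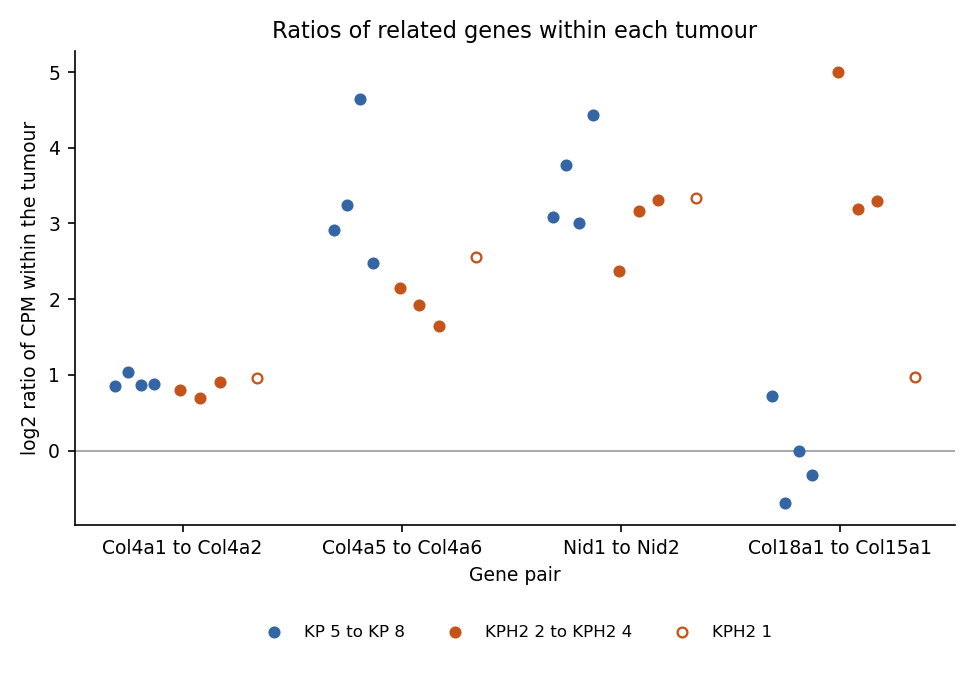
The log2 ratio of CPM within each tumour for 4 pairs of related genes, with KP 5 to KP 8 in blue, KPH2 2 to KPH2 4 in filled orange and KPH2 1 as an open circle. Col4a1 to Col4a2 stays between 0.70 and 1.04 in all 8 tumours, while Col18a1 to Col15a1 lies at or below 0.97 in KP tumours and KPH2 1 and between 3.20 and 4.997 in KPH2 2 to KPH2 4.

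Hspg2 encodes perlecan, the large heparan sulfate proteoglycan of vessel, muscle and cartilage matrix. Hspg2 (Entrez Gene 15530, chromosome 4 from 137468751 to 137570630, plus strand) was counted at 3159, 1590, 3907 and 1818 CPM in KP 5 to KP 8, at 1412, 2330 and 1705 CPM in KPH2 2 to KPH2 4 and at 1445 CPM in KPH2 1. The groups overlapped widely, with a log2 fold change of −0.53 (standard error 0.35). Agrn encodes agrin, which clusters acetylcholine receptors at the synapse and binds dystroglycan elsewhere. Agrn (Entrez Gene 11603, chromosome 4 from 156165290 to 156197533, minus strand) was counted at 124, 60.3, 72.9 and 85.4 CPM in KP 5 to KP 8, at 101, 102 and 138 CPM in KPH2 2 to KPH2 4 and at 67.1 CPM in KPH2 1. KP 5 lay above both KPH2 2 and KPH2 3, and the log2 fold change was 0.41 (standard error 0.25).

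Levels of different genes were compared as CPM per kb of annotated exon. In KP tumours the order was led by Col4a1 at 274 ± 124 CPM per kb (SD, n = 4), Hspg2 at 184 ± 77.6, Nid1 at 177 ± 37.8 and Col4a2 at 150 ± 70.2. Neighbours among these 4 differed by less than the larger of their SDs, while within each tumour Col4a1 was above Col4a2 per kb. Col15a1 followed at 38.7 ± 22.3 and Col18a1 at 29.6 ± 7.61 CPM per kb, and their ranges overlapped. Nid2 at 19.0 ± 6.11, Agrn at 11.0 ± 3.52 and Col4a5 at 7.98 ± 2.79 CPM per kb came next, and Col4a6 was last at 0.95 ± 0.68. In KPH2 2 to KPH2 4 Col18a1 moved from the 6th to the first place, with 215 ± 73.4 CPM per kb (SD, n = 3), above Col4a1 at 133 ± 3.99, Hspg2 at 128 ± 33.0 and Nid1 at 105 ± 33.9. Its 3 values ran from 159 to 298 CPM per kb, all above the mean of Col4a1, and 2 of the gaps to that mean were smaller than the SD of Col18a1. The other 9 genes kept the order that they had in KP tumours. Among 18919 genes ranked by mean CPM per kb, Col18a1 stood at place 1939 in KP and 136 in KPH2 2 to KPH2 4, and Col4a1 at 90 and 250. In KPH2 1 Col18a1 was at 18.2 CPM per kb, again below Col4a1 (195), Col4a2 (103), Hspg2 (102) and Nid1 (79.5).

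**Figure D3:**
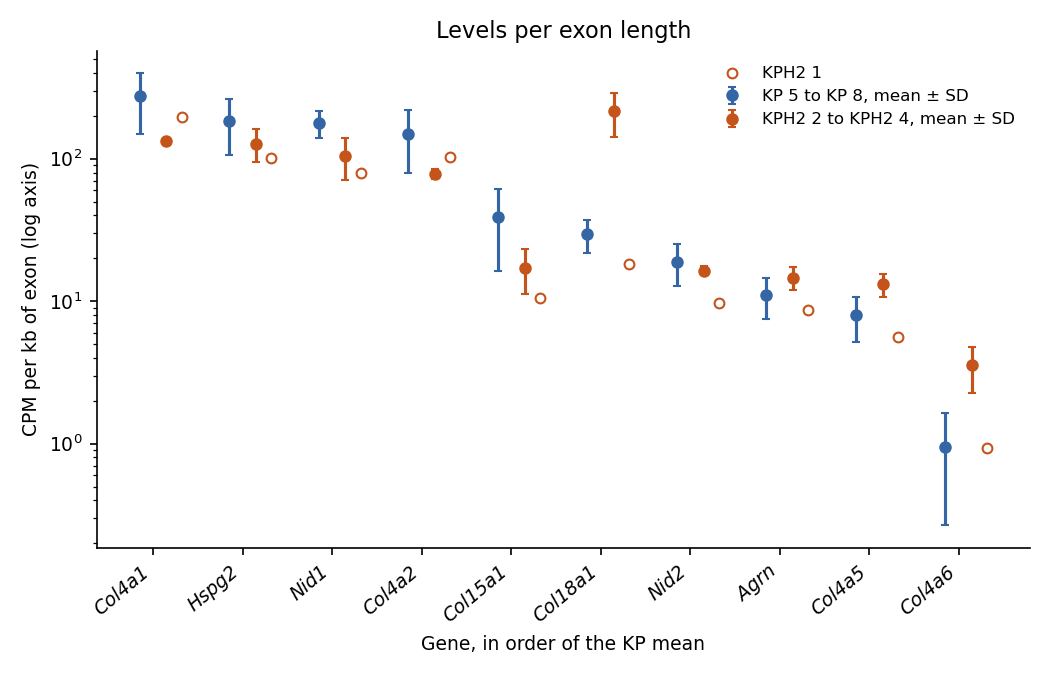
Mean CPM per kb of exon (log axis) with SD over tumours, for KP 5 to KP 8 (blue) and KPH2 2 to KPH2 4 (filled orange), and the single value of KPH2 1 (open circle), in the order of the KP means. Col18a1 changes from 29.6 to 215 CPM per kb and from the 6th to the first place, and the other 9 genes keep their order among themselves.

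Summed over the 10 genes, levels were 7248, 6242, 9875 and 5211 CPM in KP 5 to KP 8, 5514, 6052 and 5572 CPM in KPH2 2 to KPH2 4 and 4224 CPM in KPH2 1. The sum of KPH2 2 to KPH2 4 thus lay inside the KP range while its makeup differed. Col18a1 made up 2.29% to 4.16% of it in KP tumours, 36.8%, 17.9% and 22.9% in KPH2 2, 3 and 4, and 2.93% in KPH2 1. Col4a1 and Col4a2 together made up 28.8% to 45.8% in KP tumours and 24.04% to 24.6% in KPH2 2 to KPH2 4, and 46.2% in KPH2 1. For 8 of the 10 genes the highest and lowest tumour differed by a larger factor among the 4 KP tumours than among KPH2 2 to KPH2 4. The exceptions were Col18a1 and Nid1. A range over 4 tumours tends to be wider than one over 3, and the share over all genes was not taken. Nothing is read from this count.

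Over the 7 tumours, 1 of the 10 genes (Col18a1) had an adjusted p under 0.05 in edgeR's test, where 292 of 14867 genes (1.96%) did, and with all 8 tumours 0 of the 10 passed in edgeR's test, where 1 gene (0.00675%) did. At an unadjusted p under 0.05, 7 of the 10 genes passed over the 7 tumours and 6 over all 8, where 17.8% of 14867 and 14.7% of 14805 tested genes did. DESeq2 over the 7 tumours called 3 of the 10, Col18a1, Col4a6 (adjusted p = 0.0217) and Col4a1 (adjusted p = 0.0363), where it called 7.2% of the genes that it gave an adjusted p. Over all 8 tumours, in a fit added after seeing the data, DESeq2 called 2 of the 10, Col18a1 and Col15a1 (adjusted p = 0.0497), where it called 4.06% of the genes that it gave an adjusted p. The adjusted p from edgeR of the 9 other genes ran from 0.158 to 0.701. CPM did not overlap between the groups for 4 of the 10 genes over the 7 tumours (Col18a1, Col4a6, Col4a1 and Nid1), where this held for 16.9% of all tested genes, and for Nid1 alone over all 8, where it held for 8.15%. The log2 fold change was above 0 for Col18a1, Col4a6, Col4a5 and Agrn and below 0 for the other 6, with a median of −0.37 beside −0.02 for all tested genes. Since the genes were chosen with this contrast known, nothing is read from these counts.

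**Figure D4:**
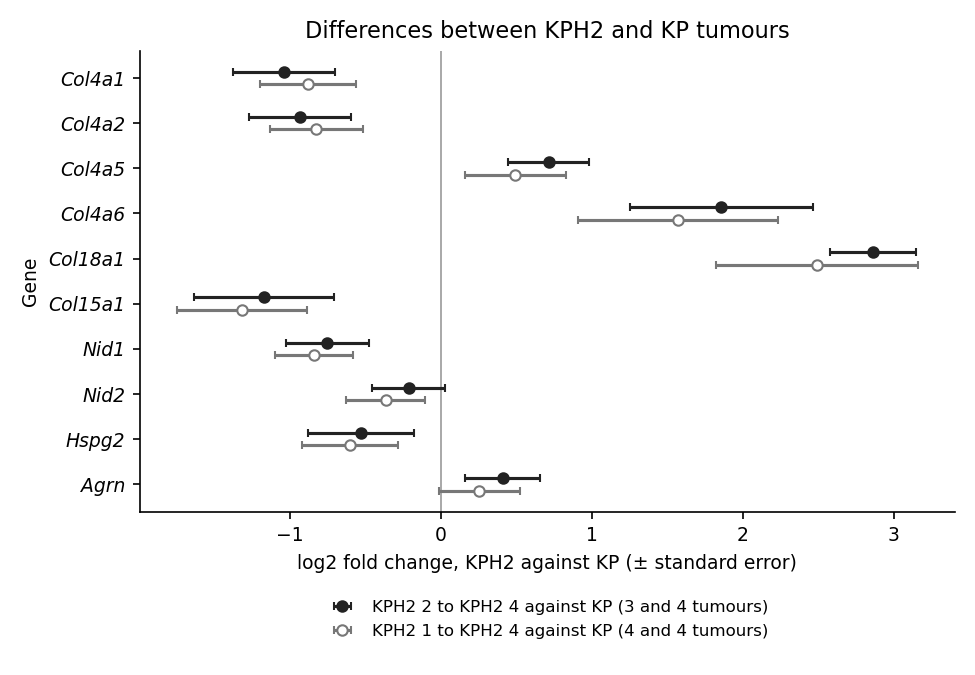
The log2 fold change of each gene with its standard error from edgeR, for KPH2 2 to KPH2 4 against KP (filled points) and for KPH2 1 to KPH2 4 against KP (open points). Col18a1 is at 2.86 and 2.49 and Col4a6 at 1.86 and 1.57, and the standard error of Col18a1 grows from 0.29 to 0.67 when KPH2 1 is included.

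KPH2 1 was set against the ranges of the other tumours for each of the 10 genes. Its level lay inside the KP range for 5 of the 10 genes, namely Col4a1, Col4a2, Col4a5, Col4a6 and Agrn, below it for the other 5 and above it for 0. Against KPH2 2 to KPH2 4, it was lower for 6 genes, inside their range for Hspg2 and Nid1, and higher for Col4a1 and Col4a2.

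Genes that act with these proteins were examined in 8 lists, of which 103 of 112 genes could be tested. Over the 7 tumours, 7 of these passed the adjusted p of 0.05 in edgeR's test as higher in KPH2 and 2 as lower. Together this was 8.74%, beside 1.96% of all tested genes, and 17.8% of all tested genes had an unadjusted p under 0.05. The lists were chosen with earlier results of these data known, so nothing is read from this share. With 1 tumour left out at a time, Lama5 passed in all 7 fits, Itga7 in 5, Lamb3 and Rapsn in 2, and Npnt, Itgb4, Ddr1, Xylt1 and Mmp2 in 1 each. With the muscle marker score of each tumour as a covariate, Lama5 alone of the 9 passed (adjusted p = 0.00171 in edgeR), where 3 of 14867 genes did. Log2 fold changes nearer to 0 in that fit were those of Ddr1 (2.06 to 1.17), Xylt1 (−1.31 to −0.70) and Rapsn (2.14 to 1.56). Those of Npnt (2.14 to 1.70), Lamb3 (3.23 to 3.06) and Mmp2 (−1.58 to −1.46) were also nearer to 0. Those of Lama5 (3.46 to 3.96), Itga7 (2.10 to 2.34) and Itgb4 (2.685 to 2.92) were farther from 0. With all 8 tumours the adjusted p from edgeR of 8 of these 9 genes ran from 0.123 to 0.337, and Lamb3 was below the filter and not tested. None of the 5 other basement membrane collagens passed in edgeR or DESeq2, and 1 had an unadjusted p under 0.05. The smallest p values among them were those of Col4a4, at 1.27 to 3.41 CPM in KP and 4.17 to 4.80 CPM in KPH2 2 to KPH2 4 (log2 fold change 0.95, standard error 0.36), and Col4a3, at 1.42 to 3.12 and 2.93 to 4.77 CPM (0.62, standard error 0.36), the chains that join α5 in the glomerulus. Of 17 other basement membrane proteins, Npnt alone passed in edgeR, and DESeq2 called 1 higher and 3 lower. Npnt encodes nephronectin, a ligand of integrin α8β1, and rose from 9.28 ± 4.15 CPM (SD, n = 4) to 41.1 ± 7.66 CPM (SD, n = 3), while KPH2 1 stood at 7.11 CPM.

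Of the 11 laminin chains, 2 rose in edgeR's test, and DESeq2 called 2 higher and 2 lower. Lama5, the α5 chain of vessel and epithelial basement membranes, was at 34.9 to 47.7 CPM in KP tumours, at 360 to 528 CPM in KPH2 2 to KPH2 4 and at 25.6 CPM in KPH2 1 (log2 fold change 3.46 with a standard error of 0.19, and an adjusted p of 0.00072 in edgeR). Lamb3, the β3 chain of laminin-332, was low throughout, at most 0.71 CPM in KP tumours and 2.48 to 4.00 CPM in KPH2 2 to KPH2 4. Of the 12 cell surface receptors, 3 rose in edgeR's test and 6 in that of DESeq2. These were Itga7 (32.4 ± 11.7 to 139 ± 17.0 CPM), the integrin chain of muscle fibres that binds laminin, Itgb4 (16.4 ± 9.90 to 107 ± 54.5 CPM), the chain of hemidesmosomes, and Ddr1 (13.02 ± 6.66 to 55.3 ± 14.95 CPM), a collagen-binding receptor kinase, each as mean ± SD with n = 4 and n = 3. In KPH2 1 the 3 receptors stood at 6.47, 7.03 and 6.95 CPM, near or below the lowest KP tumour.

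Rapsn, whose product anchors acetylcholine receptors downstream of agrin, was the 1 gene of 8 tested for agrin signalling that passed in edgeR, where DESeq2 called 5. It was at 1.27 to 3.17 CPM in KP tumours and 8.90 to 10.2 CPM in KPH2 2 to KPH2 4. The median log2 fold change of these 8 genes was 2.31. Skeletal muscle fibre markers, given with the cell types, had a median of 2.23, and their part in this value was not tested. None of 16 genes for collagen folding, modification and secretion passed in edgeR, where 4 had an unadjusted p under 0.05, and DESeq2 called 2, both lower. The smallest p values in that list were those of P3h3, a prolyl 3-hydroxylase counted under its older symbol Leprel2 (59.4 ± 21.8 CPM in KP and 21.3 ± 9.21 CPM in KPH2 2 to KPH2 4, with KPH2 1 at 70.5 CPM), and Crtap, a subunit of the prolyl 3-hydroxylase complex with P3h1 (76.3 ± 15.5 and 49.6 ± 8.05 CPM, with KPH2 1 at 74.2 CPM).

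Of 21 genes for heparan sulfate synthesis and editing, Xylt1 alone passed in edgeR, and DESeq2 also called 1. Xylt1 encodes a xylosyltransferase that starts glycosaminoglycan chains on core proteins and fell from 46.9 ± 11.4 CPM (SD, n = 4) to 18.9 ± 2.97 CPM (SD, n = 3), with KPH2 1 at 29.3 CPM, below all 4 KP tumours. Of 13 proteases that cut basement membrane proteins, Mmp2, which cleaves collagen IV, alone passed in edgeR, and DESeq2 called 1 higher and 2 lower. Mmp2 fell from 586 ± 199 to 197 ± 53.6 CPM (SD, n = 4 and n = 3), with KPH2 1 at 426 CPM, inside the KP range (adjusted p = 0.0491 from edgeR). The median log2 fold changes of the lists were 0.62 for other collagens, −0.05 for other basement membrane proteins, 0.05 for laminin chains, 0.77 for receptors, −0.27 for collagen folding, −0.10 for heparan sulfate enzymes and −0.44 for proteases, beside −0.02 for all tested genes.

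**Figure D5:**
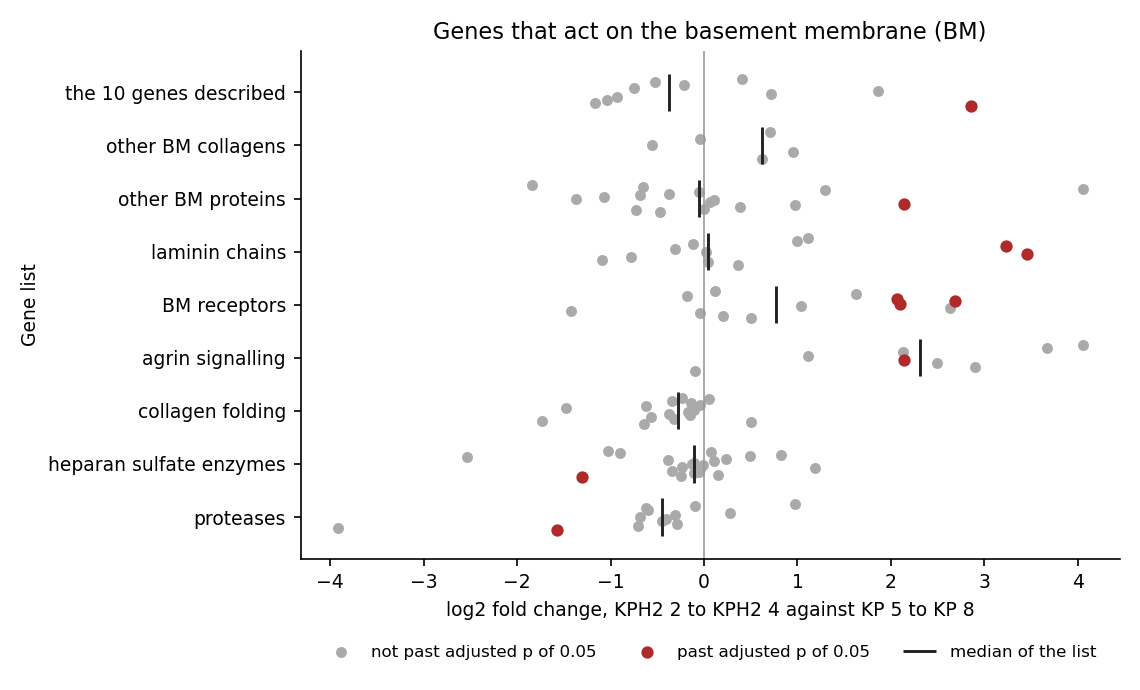
The log2 fold change (KPH2 2 to KPH2 4 against KP 5 to KP 8) of every tested gene of the 10 genes described and of the 8 related lists. Red points passed an adjusted p of 0.05 and black lines are the medians of the lists. Agrin signalling has the highest median, 2.31, and the 2 laminin chains that passed lie at 3.23 and 3.46.

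The 5 genes whose pattern over all 8 tumours was most like that of Col18a1, by the root mean square difference of centred log2 CPM among 14804 other genes, were Lama5 (0.40), Dapk2 (0.47), Bcar3 (0.48), Qrfp (0.49) and Ano1 (0.50), where the median gene was at 1.54. Like Col18a1, each was higher in KPH2 2 to KPH2 4 than in any KP tumour. KPH2 1 lay below the KP range for Lama5, Dapk2 (1.76 CPM against 2.67 to 7.78), Bcar3 (4.396 against 7.204 to 14.2) and Qrfp (0.64 against 1.19 to 1.84), and inside it for Ano1, the calcium-activated chloride channel (13.03 against 10.9 to 21.2). The measure was taken over the same tumours that gave the difference between the groups.

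Markers of the cell types that make or rest on basement membranes were examined in the same tumours. The 16 skeletal muscle fibre markers summed to 1014, 340, 448 and 799 CPM in KP 5 to KP 8, to 3009, 4744 and 953 CPM in KPH2 2 to KPH2 4 and to 393 CPM in KPH2 1. All 16 had a higher mean in KPH2 2 to KPH2 4, with a median log2 fold change of 2.23, and DESeq2 called 13 of them. In edgeR all 16 had an unadjusted p under 0.05 and 1, Eno3, the muscle enolase, passed the adjusted p of 0.05 (20.7 ± 6.49 CPM for KP and 164 ± 48.5 CPM for KPH2 2 to KPH2 4, as mean ± SD with n = 4 and n = 3). None was at 0 in any tumour. The summed muscle level of KPH2 4 lay inside the KP range, but 6 of its 16 markers lay above the highest KP tumour. With the muscle score of each tumour as a covariate, the log2 fold change of Col18a1 was 3.21 (adjusted p = 0.136 from edgeR), and 3 genes in all passed the adjusted p. In the same fit the values nearer to 0 than without the covariate were Col15a1 at −0.14, Col4a1 at −0.52, Col4a2 at −0.58, Col4a5 at 0.54, Col4a6 at 1.62 and Agrn at 0.30, and those farther from 0 were Nid1 at −0.83, Hspg2 at −0.72 and Nid2 at −0.48.

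The 12 endothelial markers summed to 421 to 730 CPM in KP tumours, 365 to 423 CPM in KPH2 2 to KPH2 4 and 314 CPM in KPH2 1. All 12 had a lower mean in KPH2 2 to KPH2 4, with a median log2 fold change of −0.55. None passed the adjusted p in edgeR, where 6 had an unadjusted p under 0.05, and DESeq2 called 3. Pecam1 was at 77.4 to 150 CPM in KP and 60.2 to 73.0 CPM in KPH2 2 to KPH2 4. The 9 mural cell markers ran from 697 to 1312 CPM in KP and from 531 to 1377 CPM in KPH2 2 to KPH2 4, and the 6 macrophage markers from 2075 to 3920 and from 1500 to 2274 CPM. None of either list passed in edgeR, where 2 and 3 had an unadjusted p under 0.05, and DESeq2 called 1 of each. The medians of these 3 lists are below 0, as are the fold changes of 6 of the 10 genes. Of the 9 mural markers, 8 had a log2 fold change below 0, with Myh11 at −1.27 (adjusted p = 0.0588 in edgeR). The 1 above 0, Notch3, was at 0.96, and at 0.34 without KPH2 3. The part of muscle, vessel and macrophage content in these values was not tested beyond the covariate.

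Of 6 epithelial markers, Krt8 and Krt18 rose in edgeR's test, Krt8 from 1.13 ± 0.60 CPM (SD, n = 4) to 184 ± 154 CPM (SD, n = 3) and Krt18 from 2.89 ± 1.74 to 157 ± 101 CPM. Krt5 and Krt14 were at 0 in all 8 tumours, and Epcam was at most 1.41 CPM. With 1 tumour left out, Krt8 passed in 2 of 7 fits and Krt18 in 6. KPH2 1 had Krt8 at 1.44 CPM, inside the KP range, and Krt18 at 56.2 CPM. The 3 epithelial markers that could be tested were all higher in KPH2 2 to KPH2 4, and DESeq2 called all 3. The summed epithelial markers were 471, 50.1 and 523 CPM in KPH2 2, 3 and 4 and 58.4 CPM in KPH2 1, against 3.86 to 6.98 CPM in KP tumours. The part of these markers in the level of Col18a1 was not tested. Of 6 mesenchymal markers, Pdgfra alone passed in edgeR and in DESeq2. Its means were 997 ± 342 CPM for KP (SD, n = 4) and 245 ± 25.6 CPM for KPH2 2 to KPH2 4 (SD, n = 3), with KPH2 1 at 639 CPM, and the summed list, 17250 to 41530 CPM in KP and 20960 to 29520 CPM in KPH2 2 to KPH2 4, was high in every tumour labelled as sarcoma. The adipocyte markers summed to 4.61 to 28.5 CPM in KP and 4.80 to 5.85 CPM in KPH2 2 to KPH2 4. Of these, Fabp4 alone could be tested (log2 fold change −1.40, adjusted p = 0.174 in edgeR). The 6 Schwann cell markers described summed to 80.2 to 132 CPM in KP, 74.4 to 88.6 CPM in KPH2 2 to KPH2 4 and 75.4 CPM in KPH2 1. Of 5 tested, 3 had a higher and 2 a lower mean in KPH2 2 to KPH2 4, none passed in edgeR, and 1 had an unadjusted p under 0.05.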

How the data were processed

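RNA from 8 formalin-fixed, paraffin-embedded tumours (4 KP, 4 KPH2) was freed of ribosomal RNA, made into stranded libraries and sequenced. Per the labels and the paper's methods, the authors used STAR 2.4 to align reads to GRCm38 and HTSeq 0.6.1 for the deposited counts of uniquely aligned reads per RefSeq gene, which are raw. The deposited log2 values, from the regularized log transformation of DESeq2 for 7 or 8 tumours, served as an alternative only. No per-sample column was left out.

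The analysis used edgeR 4.0.16 in R 4.3.3 with TMM scaling, its filter on low counts (minimum count 10, total count 15), the robust quasi-likelihood test without covariates, and Benjamini-Hochberg adjustment over all tested genes. CPM were scaled over all 8 tumours, and log2 CPM and ratios used a prior count of 2. Standard errors are the log2 fold change divided by the square root of the F statistic. Positions and promoters are those of RefSeq on GRCm38.p6. Exon lengths and the strands of the genes are those of the GENCODE basic annotation of GRCm38. Of the listed genes, 6 were matched by an older symbol. Figures were drawn with matplotlib 3.10.9.

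The genes, lists and tests were chosen with earlier results of these data known. Named are the 10 genes, Epas1, every gene of a list past the adjusted p of 0.05 or otherwise the 2 with the smallest p, and the 5 most like Col18a1. Pecam1, Epcam, Krt5, Krt14, Notch3, Myh11 and Fabp4 were chosen after their values were seen. Tumours are separate, and p-values measure the spread between them. Any pair of libraries differed by more than sampling noise, with a chi-square per degree of freedom of at least 30.4. The tests were first tried on artificial counts with known changes. Alternatives were all 8 tumours, other scalings and filters, leaving out each tumour in turn, DESeq2 1.42.0, edgeR without robust estimates, limma 3.58.1 on the deposited log2 values, the mean log2 CPM of the muscle markers as a covariate, and other lengths and prior counts. DESeq2 over all 8 tumours was added after seeing the data. In the paper the Results name 3 KP tumours and 4 KPH2 tumours and the Methods the reverse. The Methods were followed. A further allele of the mice and a marker gene are not reported here.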

Additional observations from a re-analysis of the deposited data

Results flagged for a closer look

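Among 28 groups of 4 tumours examined for a value that stands apart from the other 3 (by Dixon's 95% critical value for the gap to the nearest tumour), 2 were found, and chance gives about 5% of such groups. Col4a1 in KPH2 1 was at 10.33 on the log2 CPM scale, against 9.73 to 9.81 in KPH2 2 to KPH2 4, a gap of 0.865 of the range. The log2 ratio of Col4a1 to Col4a2 in KP 6 was 1.04, against 0.85 to 0.88 in the other KP tumours, a gap of 0.847 of the range.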

How the results depend on the processing

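The number of genes past the adjusted p of 0.05 was 292 over the 7 tumours and moved with the samples and the tool. It was 1 with all 8 tumours, 1175 with DESeq2, 648 with DESeq2 over all 8 tumours, 3 with the muscle covariate, and from 55 (without KPH2 2) to 349 (without KP 5) with 1 tumour left out. It was 130 without KP 6 and also without KP 8, 73 without KP 7, 159 without KPH2 3 and 153 without KPH2 4. Among the 10 genes, 1 passed in the 7-tumour fit and in each fit with 1 tumour left out, 0 with all 8 tumours, 3 with DESeq2, 2 with DESeq2 over all 8 tumours and 0 with the muscle covariate. Col18a1 kept its direction under all 17 alternatives, with a log2 fold change from 1.88 to 3.21, and passed the threshold in 15 of them, the exceptions being all 8 tumours in edgeR and the muscle covariate. With 1 tumour left out its adjusted p from edgeR ran from 0.00954 to 0.0303. Of the other 9 genes, Nid2 alone changed sign, with −0.37 to 0.015 when 1 tumour was left out, the positive value without KP 5. Scaling by size factors of DESeq2 or upper quartiles and the other filters changed no call among the 10 genes. KP 6 and KP 7 were the shallowest libraries, and low genes such as Col4a6 are the least precise there. No paired analysis was possible because the groups share no replicate numbers.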
